A study of Mus musculus with 12 samples.

Results

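The 10 genes described here carry glucose into the cell and through glycolysis to lactate. They are Slc2a1, Hk1, Hk2, Pfkm, Aldoa, Aldoc, Tpi1, Eno1, Ldha and Ldhb. They were taken by symbol from the deposited raw count table, where all 10 were found among 750 endogenous probes of the mouse IO360 panel for nCounter. The instrument counts barcoded probes bound to a fixed set of transcripts. RNA came from 12 mammary tumours of mice with the MMTV-PyMT genotype, in which the mouse mammary tumour virus promoter drives the polyoma middle T antigen in mammary epithelium. Every tumour had been treated with PTX, the chemotherapy, so no library came from an untreated tumour. Tumours labelled PLX+PTX+aPD-L1 (n = 2) had PTX, the CSF1R inhibitor PLX and an antibody against the checkpoint ligand PD-L1. The R group (n = 3) and the NR group (n = 3), whose titles add these letters to PLX+PTX+aPD-1, had PTX, PLX and an antibody against PD-1, an inhibitory receptor of T cells. What R and NR stand for is not in the labels. The PLX+PTX group (n = 2) had the inhibitor with chemotherapy, and the PTX group (n = 2) had chemotherapy alone. CSF1R is the receptor that most tissue macrophages need to survive. Whether each tumour came from its own animal is not stated in the labels. The p-values therefore rest on the spread among tumours as sampled, part of which may be technical.

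Glycolysis splits glucose into pyruvate, with a net gain of ATP and reduced NAD. Slc2a1 encodes the main glucose transporter of most dividing cells. Hexokinases trap the sugar, phosphofructokinase commits it, and aldolase, triosephosphate isomerase and enolase carry it on towards pyruvate. Lactate dehydrogenase then interconverts pyruvate and lactate and restores NAD. Many tumours make lactate even where oxygen is present, and activated T cells and macrophages also raise glycolysis. Several of these genes are known targets of the hypoxia-inducible factor HIF, which binds the core letters ACGTG or GCGTG, and of the transcription factor Myc.

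The promoters of Ldha, Aldoa and Eno1 are shown because Aldoa and Ldha varied together over the 12 tumours and Eno1, of the step between, is set beside them. Each sequence is the 250 bases before a transcription start, from RefSeq on build GRCm38.p6, 5′ to 3′ on the gene's own strand. Capitals mark ACGTG or GCGTG on either strand, with CACGTG, which holds ACGTG on both strands, in capitals throughout.
Ldha: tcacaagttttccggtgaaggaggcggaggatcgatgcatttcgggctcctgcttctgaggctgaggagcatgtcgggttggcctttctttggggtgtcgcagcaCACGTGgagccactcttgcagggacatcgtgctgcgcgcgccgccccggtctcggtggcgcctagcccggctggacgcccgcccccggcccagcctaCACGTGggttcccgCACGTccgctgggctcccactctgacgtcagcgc
Aldoa: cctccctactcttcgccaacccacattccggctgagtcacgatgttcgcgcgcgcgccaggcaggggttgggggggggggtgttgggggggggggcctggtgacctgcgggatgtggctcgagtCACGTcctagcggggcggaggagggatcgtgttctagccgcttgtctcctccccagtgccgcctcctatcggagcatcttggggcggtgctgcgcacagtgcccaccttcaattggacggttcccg
Eno1: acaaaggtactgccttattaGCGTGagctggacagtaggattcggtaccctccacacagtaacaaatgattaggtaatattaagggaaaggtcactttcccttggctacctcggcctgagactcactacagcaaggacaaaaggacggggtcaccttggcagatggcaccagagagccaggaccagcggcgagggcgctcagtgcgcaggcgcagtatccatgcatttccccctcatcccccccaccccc
The Ldha window lies at chr7:46845554-46845803 on the plus strand and holds 5 ACGTG matches over both strands, with each CACGTG counted once per strand. The Aldoa window lies at chr7:126799255-126799504 on the minus strand and holds 1. The Eno1 window lies at chr4:150236458-150236707 on the plus strand and holds 0 ACGTG matches and 1 GCGTG match. All 10 genes had windows in the table, 20 in all, of which 7 (35%) held ACGTG and 11 (55%) held GCGTG. Over 32851 windows of the same length, 16.57% held ACGTG and 28.16% held GCGTG. The windows with ACGTG belong to 5 genes (Slc2a1, Hk2, Pfkm, Aldoa and Ldha), and windows of 1 gene can overlap. A match is a description of the letters and not a measured binding site. For a gene with several windows, the one with most ACGTG matches is printed, and the first listed where they tie. The windows not printed held 0 ACGTG and 2 GCGTG matches each for Eno1, 0 ACGTG and 1 GCGTG for Ldha, and 0 and 1 ACGTG for Aldoa.

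Total endogenous counts were 98741 to 141021 in the pair of PLX+PTX+aPD-L1 libraries and in R replicate 2, and 298726 to 531086 in the other 9. The same 3 were low in housekeeping signal, with a geometric mean of 86.6 to 189 counts against 260.4 to 450.2 in the other 9, and the whole PLX+PTX+aPD-L1 group therefore stands on low-signal libraries. Levels below are counts scaled on the 20 housekeeping probes (scaled counts). This scaling also lifts the background: the negative-control probes averaged 27.2 scaled counts in PLX+PTX+aPD-L1 libraries, 20.9 in R, 11.9 in NR, 14.8 in PLX+PTX and 12.4 in PTX libraries. Of 7 listed epithelial genes, 2 were on the panel (Epcam and Cdh1), and both were above the detection limit in every library. Their summed level was 5192 to 5346 scaled counts in PLX+PTX+aPD-L1 tumours, 6172 to 8447 in R, 5951 to 7301 in NR, 6464 to 6784 in PLX+PTX and 6496 to 6729 in PTX tumours. In such bulk RNA, fewer cells of a type and less RNA per cell cannot be told apart.

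All 10 genes passed the filter on low counts, and 9 were above the detection limit in every library. The exception was Hk2, which was below it in PLX+PTX+aPD-L1 replicate 1. At the lowest raw count of Hk2 and Tpi1, 24, counting error alone is 20.4% of the value, and at the highest of Aldoa it is 0.646%. These errors cover counting only, since targets were amplified before counting. Together the 10 genes took 9.03% to 14.4% of a library's endogenous counts. Their share averaged 11.3% ± 3.16 in PLX+PTX+aPD-L1 tumours, 13.3% ± 1.64 in R, 10.6% ± 1.14 in NR, 12.1% ± 0.251 in PLX+PTX and 9.94% ± 0.00757 in PTX tumours (SD). Most of this share came from Aldoa, Eno1 and Ldha probes, which gave 1742 raw counts or more in every library. Counts of different probes are not compared as levels, since each probe pair binds and amplifies in its own way.

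**Figure D1:**
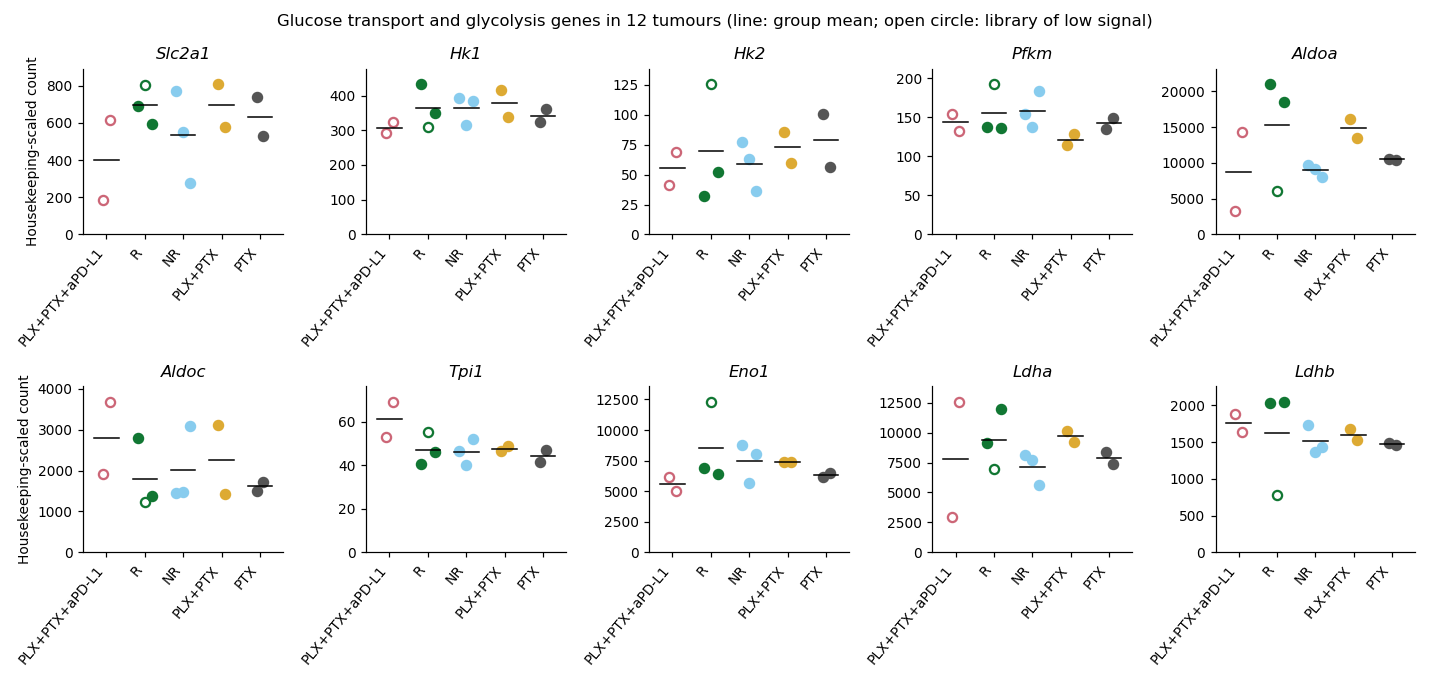
Scaled counts (y axis, linear, from 0) of each of the 10 genes in the 12 tumours, by group (x axis), with a line at each group mean and open circles for the 3 low-signal libraries; R and NR are both PLX+PTX+aPD-1 groups. Groups overlap for most genes, and both PLX+PTX+aPD-L1 libraries lie far apart for Aldoa (3209 and 14355) and Ldha (2973 and 12595).

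Slc2a1, the glucose transporter, had 184 and 615 scaled counts in PLX+PTX+aPD-L1 tumours, 691, 804 and 595 in R, 772, 548 and 277 in NR, 811 and 578 in PLX+PTX, and 737 and 529 in PTX tumours. PLX+PTX+aPD-L1 replicate 1 and NR replicate 3 lay lowest, apart from the other 10 tumours at 529 to 811. The highest and lowest tumour differed 4.39-fold, and no group stood clear of all the others.

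Hk1 and Hk2 encode hexokinases, of which Hk1 is active in most tissues and Hk2 is the form raised in many tumours. Hk1 was the steadiest of the 10 genes, at 292.0 to 434 scaled counts over the 12 tumours (1.49-fold). Hk2 had 41.1 and 69.3 scaled counts in PLX+PTX+aPD-L1 tumours, 32.5, 126 and 51.9 in R, 76.9, 62.9 and 36.2 in NR, 85.5 and 60.1 in PLX+PTX, and 101 and 56.7 in PTX tumours. Its lowest and highest tumours were both R tumours, so the R group spans the range of all 12. The lowest, R replicate 1, had 37 raw counts against a detection limit of 30.0. The highest, R replicate 2, was a low-signal library with 64 raw counts.

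Pfkm, the muscle-type phosphofructokinase subunit, had 154 and 133 scaled counts in PLX+PTX+aPD-L1 tumours, 137, 193 and 136 in R, 155, 138 and 183 in NR, 114 and 128 in PLX+PTX, and 135 and 149 in PTX tumours. In these scaled counts it was lowest in both PLX+PTX tumours, below every tumour of the other 4 groups, although its whole range was narrow (1.69-fold). In the deposited log2 values PLX+PTX+aPD-L1 replicate 1 was lower still, at 6.985 against 7.010 and 7.015 in PLX+PTX tumours.

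Aldoa encodes the general aldolase, which cuts the phosphorylated sugar into a pair of trioses. It had 3209 and 14355 scaled counts in PLX+PTX+aPD-L1 tumours, 21063, 6111 and 18483 in R, 9639.5, 9142 and 8031 in NR, 16189 and 13449.5 in PLX+PTX, and 10545 and 10427 in PTX tumours. This was the widest range of the 10 genes, 6.56-fold. Its lowest values were in PLX+PTX+aPD-L1 replicate 1 and R replicate 2, both low-signal libraries, while the other 2 R tumours had the highest. Aldoc, the brain-type aldolase, ran between 1221 and 3687 scaled counts. It was 2807 or more in 1 tumour each of PLX+PTX+aPD-L1, R, NR and PLX+PTX, and 1911 or less in the other 8.

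Tpi1, triosephosphate isomerase, stayed between 40.1 and 69.3 scaled counts, near the detection limit. Its highest values were 53.1 and 69.3 in PLX+PTX+aPD-L1 tumours and 55.2 in R replicate 2, which are the 3 low-signal libraries, where the scaled negative controls were also highest. Over the 12 libraries log2 Tpi1 had r = -0.83 with the log2 housekeeping geometric mean by which it was divided, where the other 9 genes lay between -0.24 and 0.38. With the negative controls subtracted (limma), its log2 fold change was -0.37 in R against NR and 0.05 in PLX+PTX+aPD-L1 against PLX+PTX, where the unsubtracted counts gave 0.02 and 0.34 by edgeR. Eno1, enolase, had 6196 and 5033 scaled counts in PLX+PTX+aPD-L1 tumours, 6934.5, 12326 and 6401 in R, 8797, 5649.5 and 8022 in NR, 7389 and 7357 in PLX+PTX, and 6125 and 6455 in PTX tumours. One tumour, R replicate 2, was well above the other 11, and without it the R values lay inside the NR range. The mouse genome holds a near-identical Eno1 copy and processed copies of several glycolysis genes, and the sources used here do not give the probe sequences, so cross-binding was not tested.

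Ldha encodes the lactate dehydrogenase subunit that favours lactate, and Ldhb the one that favours pyruvate. Ldha had 2973 and 12595 scaled counts in PLX+PTX+aPD-L1 tumours, 9131, 6964 and 11958 in R, 8137, 7684.5 and 5612 in NR, 10162 and 9225.5 in PLX+PTX, and 8377 and 7352 in PTX tumours. The PLX+PTX+aPD-L1 pair holds both the lowest and the highest of the 12 values. Ldhb had 1887 and 1635 scaled counts in PLX+PTX+aPD-L1 tumours, 2035, 776 and 2050.1 in R, 1727, 1368 and 1428.5 in NR, 1672 and 1528 in PLX+PTX, and 1487 and 1458 in PTX tumours. Here R replicate 2 alone was low, and 11 tumours lay within 1368 to 2050.1.

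The spread inside the groups was as large as the spread over all tumours. The median within-group SD of the 10 genes was 0.53 on the log2 scale, against 0.41 over the 615 genes tested, and the median SD over all 12 libraries was 0.46 against 0.45. Both PLX+PTX+aPD-L1 tumours, from 1 treatment, differed over 4-fold in Aldoa and in Ldha. No gene of the 10 passed the test in any of the 6 comparisons, by edgeR's quasi-likelihood test with Benjamini-Hochberg adjustment over all 615 genes, and none had an unadjusted p under 0.05. All 60 of their 95% intervals included 0. Sizeable differences remain inside these intervals, since 33 of the 60 reached past a 2-fold difference in at least 1 direction. No interval of Hk1, Pfkm or Ldhb did so, and all 6 of Slc2a1, Hk2, Aldoa and Aldoc did. The comparisons share libraries, as PLX+PTX serves in 4 of them, so their values are not independent.

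**Figure D2:**
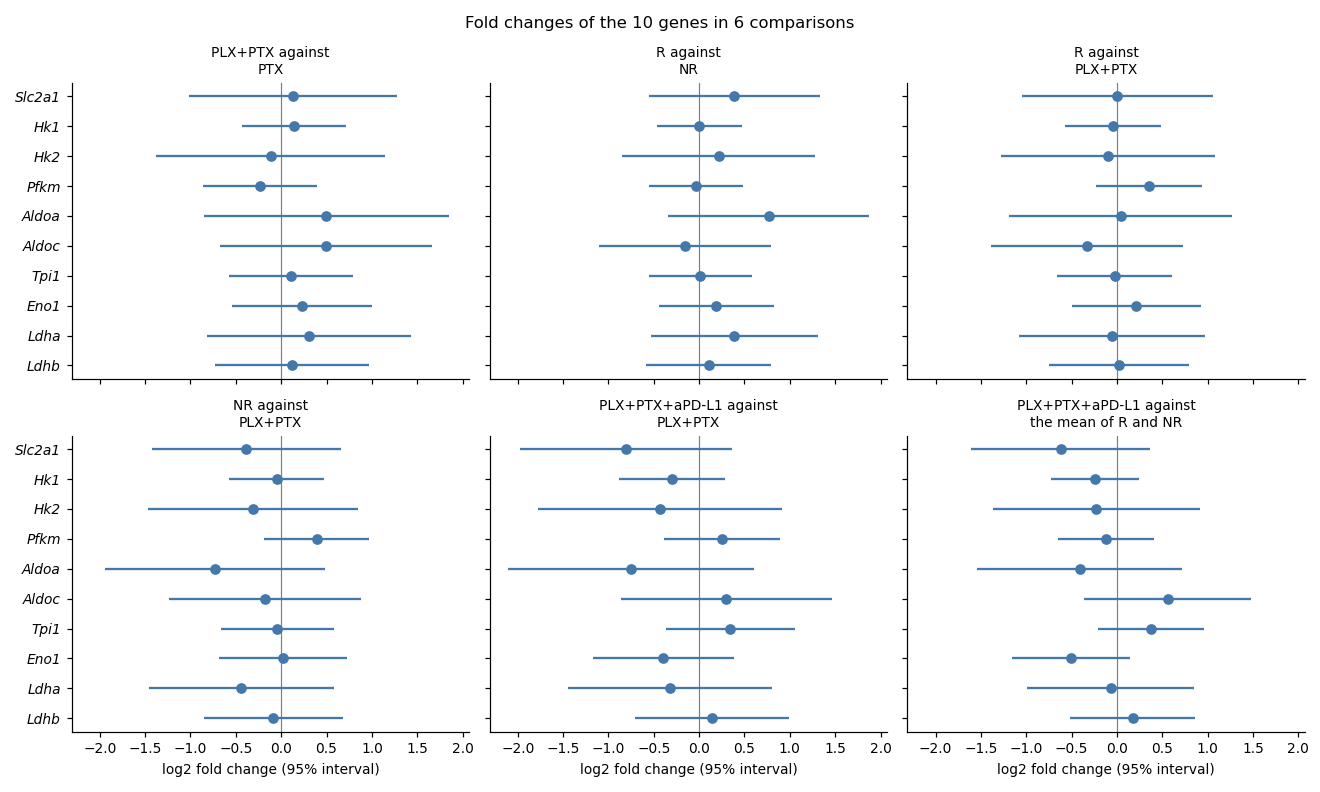
Log2 fold changes (points, x axis) with 95% intervals (lines) of the 10 genes (y axis) in the 6 comparisons, from edgeR's quasi-likelihood fit; points right of 0 are higher in the first-named group of each title. Every interval crosses 0, with the narrowest for Hk1. The widest is for Aldoa, save in PLX+PTX+aPD-L1 against R and NR averaged, where that of Hk2 is slightly wider.

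Adding the CSF1R inhibitor to chemotherapy asks whether loss of CSF1R signalling goes with a change in glucose genes of the tumour. In PLX+PTX against PTX, Aldoa was at 14819 ± 1937 against 10486 ± 83.3 scaled counts (SD, n = 2 each), a log2 fold change of 0.50 (SE 0.62). Ldha was at 9694 ± 662 against 7864 ± 725, a log2 fold change of 0.30 (SE 0.52). Aldoa, Eno1, Ldha and Ldhb were higher in both PLX+PTX tumours than in both PTX tumours, and Pfkm was lower in both. Those are 4 and 1 of 10, where 18.9% and 16.3% of all genes tested did the same. The deposited log2 values gave -0.10 for Ldhb, and values near 0 for Aldoa (0.01) and Ldha (0.02). Fold changes were above 0 for 8 of the 10 and had a median of 0.14, against 0.03 over all genes. None of the 10 passed the test, as for 0% of all genes (adjusted p = 0.996 for each, edgeR, with 1.95% of all genes at an unadjusted p under 0.05). Over the same libraries the summed level of 8 macrophage and monocyte markers was 1514 to 1653 scaled counts in PLX+PTX tumours and 1721 to 2735 in PTX tumours. None of the 8 passed the test (smallest adjusted p = 0.996 by edgeR), and fold changes were above 0 for 2 of them. The part of this sum in the values of the 10 genes was not tested.

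The R and NR tumours had the same drugs, and the labels set them apart by the suffix alone. Aldoa showed the largest fold change of the 10, at 15219 ± 7992 scaled counts in R and 8938 ± 823 in NR tumours (SD, n = 3 each). Its log2 fold change was 0.77 (SE 0.51, 95% interval -0.34 to 1.87), with an adjusted p of 0.829 by edgeR. Without R replicate 1 it was 0.46, and in the deposited log2 values 0.17. Of the R tumours, 2 were above every NR tumour and R replicate 2 was below them all. Without that library the log2 fold change was 1.15 (adjusted p = 0.690 by edgeR), and without all 3 low-signal libraries it was also 1.15 (adjusted p = 0.081). Slc2a1 and Ldha both had a log2 fold change of 0.39 (SE 0.43 and SE 0.42). Both turn on single tumours. For Slc2a1 it was 0.08 without NR replicate 3 and 0.75 without NR replicate 1, and for Ldha 0.17 without R replicate 3 and 0.24 without NR replicate 3. The deposited log2 values gave 0.24 for Slc2a1 and 0.07 for Ldha. The other 7 lay between -0.15 (Aldoc) and 0.21 (Hk2). None of the 10 passed the test, as for 0% of all genes, with 6.83% of all at an unadjusted p under 0.05. In none of the 10 did the groups fail to overlap, where 11.5% of all genes were higher and 2.11% lower in every R tumour. The median of the 10 was 0.15, against 0.11 over all genes.

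Against PLX+PTX, the R tumours had 5 of the 10 genes above 0 and 5 below, with a median log2 fold change of -0.01 against -0.07 over all genes. In none of them was every R tumour lower, where 9.43% of all genes were. The largest fold change was Pfkm, at 156 ± 32.5 scaled counts in R tumours (n = 3) and 121 ± 9.93 in PLX+PTX tumours (n = 2, SD), a log2 fold change of 0.36 (SE 0.27). In scaled counts it was the only one of the 10 higher in every R tumour, as were 6.18% of all genes. As a share of endogenous counts, Pfkm in R replicate 1 (0.0446%) was below PLX+PTX replicate 2 (0.0448%). None of the 10 passed the test, as for 0% of all genes (adjusted p of 0.979 to 0.998 by edgeR, with 2.44% of all genes at an unadjusted p under 0.05). The NR tumours had 8 of the 10 genes below 0 against PLX+PTX, with a median of -0.13 against -0.18 over all genes. With TMM scaling both medians lay above 0, at 0.08 and 0.03, and that of the 10 genes in R against PLX+PTX was 0.06. Aldoa and Ldha were lower in every NR tumour than in both PLX+PTX tumours, as were 18.4% of all genes. Aldoa was at 8938 ± 823 scaled counts in NR tumours (n = 3) and 14819 ± 1937 in PLX+PTX tumours (n = 2), a log2 fold change of -0.73 (SE 0.56). The log2 fold change of Ldha was -0.44 (SE 0.47). In the deposited log2 values both had the opposite sign, at 0.04 and 0.13. Pfkm alone was higher in every NR tumour, at a log2 fold change of 0.39 (SE 0.27), as were 2.76% of all genes. Here too none of the 10 passed the test, as for 0% of all genes (adjusted p of 0.929 to 0.999 by edgeR, with 3.74% of all genes at an unadjusted p under 0.05).

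The PLX+PTX+aPD-L1 tumours were set against PLX+PTX for the effect of the added antibody. Slc2a1 was at 400.0 ± 305 scaled counts in PLX+PTX+aPD-L1 tumours and 694 ± 165 in PLX+PTX tumours (SD, n = 2 each), a log2 fold change of -0.81 (SE 0.54). Aldoa was at 8782 ± 7881 against 14819 ± 1937, a log2 fold change of -0.76 (SE 0.62). These values come from libraries that disagree. Without PLX+PTX+aPD-L1 replicate 1 the log2 fold changes were -0.17 for Slc2a1, -0.05 for Aldoa and 0.38 for Ldha, and without replicate 2 they were -1.91, -2.21 and -1.71. Hk1 and Eno1 were lower, and Pfkm and Tpi1 higher, in both PLX+PTX+aPD-L1 tumours, where 21.3% and 23.1% of all genes did the same. With total-count scaling Hk1 and Eno1 had log2 fold changes above 0, at 0.13 and 0.07. In the deposited log2 values the groups overlapped for Pfkm, at 6.985 and 7.156 against 7.010 and 7.015. None of the 10 passed the test (adjusted p of 0.482 to 0.874 by edgeR), against 2.28% of all genes, 14 of 615, and 16.1% of all genes had an unadjusted p under 0.05. The median of the 10 was -0.31, against -0.02 over all genes. It was -0.0071 without replicate 1. Scaled by total endogenous count it was 0.10, with the median of all genes at 0.40. Of the T cell markers 6 of 6 were on the panel, with a summed level of 119 to 182 scaled counts in PLX+PTX+aPD-L1 tumours and 72.2 to 76.6 in PLX+PTX tumours. Only 1 of the 6 was above the detection limit in 6 or more libraries. Negative controls averaged 27.2 and 14.8 scaled counts per probe in these groups, so this sum cannot be told apart from background. Of the 3 tested, Cd2 passed (log2 fold change 2.24, adjusted p = 0.0172 by edgeR), although every library had Cd2, Cd3d and Cd8a below the detection limit. The summed level of 3 endothelial markers was 292 to 725 in PLX+PTX+aPD-L1 tumours and 255 to 277 in PLX+PTX tumours, with none of the 3 past the test. Their part in the values of the 10 genes was not tested.

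Against R and NR averaged, Eno1 was at 5615 ± 822 scaled counts in PLX+PTX+aPD-L1 tumours (n = 2) and 8022 ± 2390.3 in R and NR tumours (n = 6, SD). Its log2 fold change was -0.51 (SE 0.30, 95% interval -1.16 to 0.14) and its adjusted p 0.374 by edgeR, the smallest of the 10. It was -0.33 without R replicate 2 and -0.23 with total-count scaling. Aldoc had a log2 fold change of 0.56 (SE 0.42) and Slc2a1 one of -0.62 (SE 0.45). These also come from libraries that disagree: without PLX+PTX+aPD-L1 replicate 1 they were 0.96 and 0.016, and without replicate 2 they were 0.0076 and -1.72. None of the 10 passed the test, against 5.69% of all genes, 35 of 615, and 17.9% of all genes had an unadjusted p under 0.05. None had groups that failed to overlap, where 11.5% of all genes were higher and 4.72% lower in both PLX+PTX+aPD-L1 tumours. The median of the 10 was -0.17, against 0.10 over all genes. Without PLX+PTX+aPD-L1 replicate 1 it was 0.10, and scaled by total endogenous count it was 0.02, with the median of all genes at 0.36. In the same comparison 1 marker passed the test in each of 4 cell type lists: Kdr of the 3 endothelial genes tested (log2 fold change 2.45, adjusted p = 0.00186 by edgeR), Cd2 of 3 T cell genes (2.01, adjusted p = 0.00389), Pdgfrb of 2 fibroblast genes (1.84, adjusted p = 0.00709) and S100a9 of 2 neutrophil genes (2.31, adjusted p = 0.0253). Fold changes were above 0 for 3 of 3 tested endothelial genes and 2 of 3 T cell genes. They were above 0 for only 1 of 2 fibroblast genes and 1 of 2 neutrophil genes. The other gene of each pair had a fold change below 0 that did not pass the test. Cd2 was below the detection limit in every library. The summed endothelial level was 292 to 725 scaled counts in PLX+PTX+aPD-L1 tumours, 118 to 226 in R and 109 to 187 in NR tumours. The T cell sum was 119 to 182 in PLX+PTX+aPD-L1 tumours, 76.9 to 135 in R and 66.9 to 75.2 in NR tumours. Only 1 of its 6 probes was above the detection limit in 6 or more libraries. Negative controls averaged 27.2, 20.9 and 11.9 scaled counts per probe in these groups, so this sum too cannot be told apart from background. The fibroblast sum was 81.0 to 159 in PLX+PTX+aPD-L1 tumours, 50.9 to 70.9 in R and 41.4 to 62.1 in NR tumours. Both of its 2 probes were above the detection limit in 6 or more libraries, but the background per probe was not small beside this sum. The neutrophil sum was 627 to 762 in PLX+PTX+aPD-L1 tumours, 478 to 3057 in R and 388 to 1911 in NR tumours, so the groups overlap. Only 1 of its 4 probes was above the detection limit in 6 or more libraries, and Cxcr2 was below it in every library. None of 3 tested proliferation genes passed (smallest adjusted p = 0.313 by edgeR). The sum of the 4 on the panel, of which Ccnb1 was below the detection limit in every library, was 1907 to 2398 in PLX+PTX+aPD-L1 tumours, 2397 to 5091 in R and 2328 to 4430 in NR tumours, so the groups overlap. Their part in the values of Eno1 and Slc2a1 was not tested.

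The isozyme ratios are free of library scaling, since both counts come from the same library. Ldha over Ldhb was 1.58 and 7.70 in PLX+PTX+aPD-L1 tumours, 4.49, 8.97 and 5.83 in R, 4.71, 5.62 and 3.93 in NR, 6.08 and 6.04 in PLX+PTX, and 5.63 and 5.04 in PTX tumours. The 3 values outside 3.93 to 6.08 were those of the 3 low-signal libraries. Aldoa over Aldoc was 1.68 and 3.89 in PLX+PTX+aPD-L1 tumours, 7.50, 5.00 and 13.4 in R, 6.69, 6.198 and 2.59 in NR, 5.18 and 9.50 in PLX+PTX, and 7.07 and 6.03 in PTX tumours. It was lower in both PLX+PTX+aPD-L1 tumours than in both PLX+PTX tumours, by 1.46 on the log2 scale. A two-sided exact permutation test gave p = 0.333 for this, the smallest that 2 against 2 allows. Against R and NR together the log2 difference was -1.27 (exact permutation p = 0.107, where 0.0357 is the smallest possible). Hk2 over Hk1 ran between 0.0749 and 0.408, with both ends in R tumours, R replicate 1 and the low-signal R replicate 2. With 18 such tests, 3 ratios in 6 comparisons, no adjusted p could have reached 0.05 at these group sizes, so the ratios are given as descriptions.

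**Figure D3:**
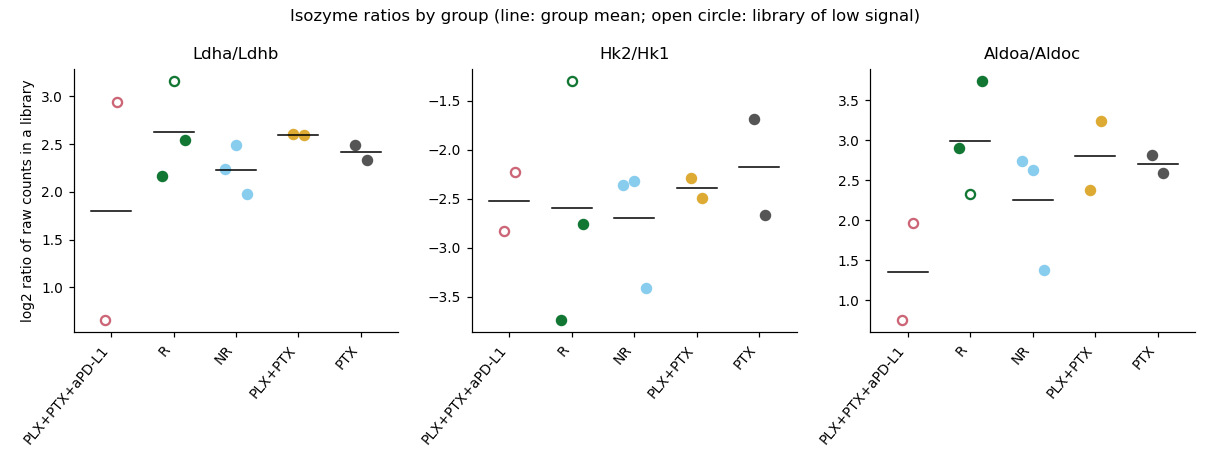
Log2 ratio of raw counts in each tumour (y axis) for Ldha over Ldhb, Hk2 over Hk1 and Aldoa over Aldoc, by group (x axis), with a line at the group mean and open circles for low-signal libraries. The Aldoa over Aldoc ratio is lowest in PLX+PTX+aPD-L1 replicate 1 (1.68 as a plain ratio), and the Ldha over Ldhb ratio differs between both PLX+PTX+aPD-L1 tumours (1.58 and 7.70).

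The 10 genes did not vary as 1 block over the 12 tumours. The median Pearson correlation of their 45 pairs (log2 of scaled count + 1) was 0.03, against 0.08 over the 188805 pairs of all tested genes, and 23 of the 45 were above 0. The closest pair was Aldoa and Ldha, with r = 0.90 and Spearman's rho = 0.88 over n = 12 libraries. Permutation tests gave p = 0.00022 (0.00990 after Benjamini-Hochberg adjustment over the 45 pairs) for r, and an adjusted p of 0.0184 for rho. Without the libraries farthest from the median of Aldoa, PLX+PTX+aPD-L1 replicate 1 and R replicate 1, r was 0.86. In the 9 libraries of higher signal it was 0.82 (permutation p = 0.00372, adjusted 0.112), and in the deposited log2 values 0.76. The tumours thus ran in nearly the same order for both genes, with PLX+PTX+aPD-L1 replicate 1 lowest in each.

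Other pairs were less firm. Slc2a1 and Ldha had r = 0.80 (permutation p = 0.00608, adjusted 0.137) and rho = 0.45 (adjusted 0.690), and without PLX+PTX+aPD-L1 replicate 1 and NR replicate 3 their r was -0.11, so the relation over all 12 rests on those libraries. In the 9 libraries of higher signal, which keep NR replicate 3, it was 0.71 (permutation p = 0.0485, adjusted 0.300), and in the deposited log2 values 0.78. Pfkm ran against Ldha by rank (rho = -0.83, adjusted permutation p = 0.0331), while r was -0.53 (adjusted 0.325) and the deposited log2 values gave r = 0.40. Eno1, which acts between aldolase and lactate dehydrogenase, had r = -0.24 (permutation p = 0.445) with Aldoa and r = -0.16 (permutation p = 0.578) with Ldha. In the deposited log2 values these were 0.15 and 0.63, so the sign of both depends on which values are used.

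**Figure D4:**
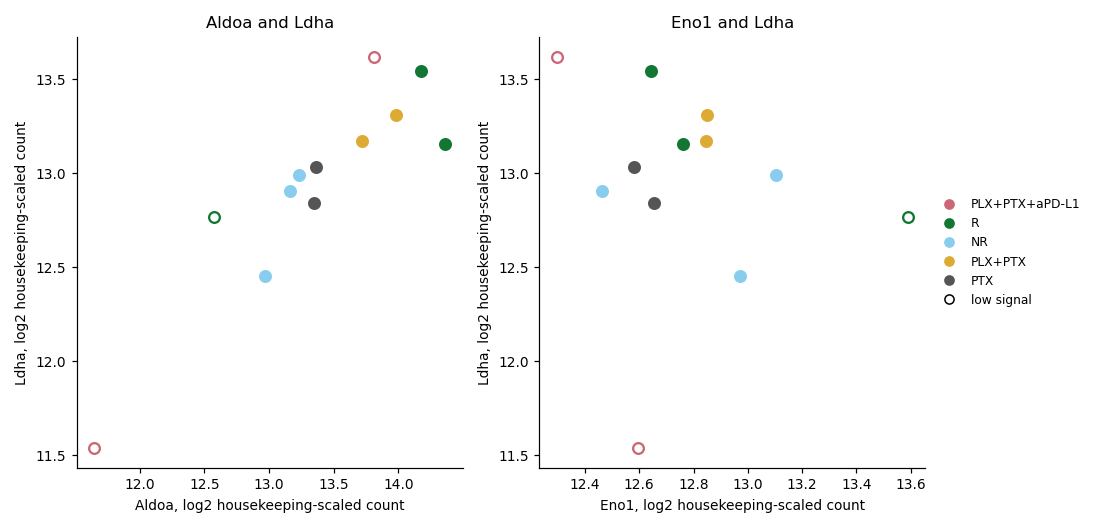
Log2 scaled count of Ldha (y axis) against Aldoa (left, x axis) and against Eno1 (right, x axis) in the 12 tumours, with colours for the 5 groups and open circles for low-signal libraries. Ldha rises with Aldoa (r = 0.90) in these scaled counts, where r with Eno1 is -0.16; the deposited log2 values gave 0.76 and 0.63.

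The genes of the panel closest to each member over the 12 libraries also differed from member to member. These correlations are descriptions, chosen as the 3 highest of all tested genes, and the 12 points share their scaling. Aldoa ran closest to Pdzk1ip1 (r = 0.92), Cd47 (r = 0.91), which encodes a surface signal against phagocytosis, and Ldha. The genes near Ldha included Palmd (r = 0.91) and Col11a1 (r = 0.90), which encodes a collagen chain. Eno1 ran closest to Cdc20 (r = 0.93), an activator of the anaphase ubiquitin ligase, H2afx (r = 0.91) and Elob (r = 0.87). Slc2a1 ran closest to Lgals9 (r = 0.94), Ifi27 (r = 0.94) and Atf3 (r = 0.90). Hk1 was nearest to Bnip3l (r = 0.88), Psmb8 and Tpm1, and Hk2 to Eif2ak2 (r = 0.93), Ero1l (r = 0.81) and Sbno2. Ldhb was nearest to Bax (r = 0.86), Rpl23 and Hdac11, and Aldoc to Psmb9 (r = 0.78), Tnfrsf14 and Arg2. The genes near Pfkm included Akt1 (r = 0.79) and Smap1, and the nearest of Tpi1 were Col11a2 (r = 0.89), Fut4 and Id4. Without the 3 low-signal libraries r was 0.82 between Tpi1 and Col11a2, 0.35 with Fut4 and 0.59 with Id4, and it was 0.63 between Eno1 and Elob and 0.53 between Ldhb and Hdac11. Aldoa was the only member with another member among its 3 nearest genes.

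Few other genes of glucose handling were on the panel. Of 26 listed, 5 were present as endogenous probes, of which 4 were tested (Pfkfb3, Fbp1, Pkm and Pdk1). Another 1, G6pdx, was among the housekeeping probes used for scaling, as was Sdha of the mitochondrial list. None of the 4 passed the test in any comparison, and neither did any of 10 tested hypoxia genes, 8 regulators or 5 genes of mitochondrial and amino acid carbon. The hypoxia genes had a median log2 fold change of 0.41 in PLX+PTX against PTX, with 2 of 10 below 0, where 46.0% of all genes were. It was -0.15 in R against NR, with 9 of 10 below 0 against 37.9% of all genes. Against PLX+PTX it was -0.41 in R (9 of 10 below 0, against 58.4% of all), -0.27 in NR (9 of 10, against 69.8%) and -0.50 in PLX+PTX+aPD-L1 (7 of 10, against 50.9%). In PLX+PTX+aPD-L1 against R and NR averaged it was -0.12, with 7 of 10 below 0 against 41.6% of all genes. Hif1a, the oxygen-regulated HIF subunit, was at 75.3 ± 4.29 scaled counts in PLX+PTX+aPD-L1 tumours and 113 ± 16.8 in PLX+PTX tumours (SD, n = 2 each), a log2 fold change of -0.59 (SE 0.36, adjusted p = 0.466 by edgeR). Hif1a had raw counts of 59 and 25 in the PLX+PTX+aPD-L1 libraries, where the detection limits were 32.5 and 22.7. Its other log2 fold changes were -0.15 in R and -0.06 in NR against PLX+PTX, -0.10 in R against NR, -0.07 in PLX+PTX against PTX and -0.48 in PLX+PTX+aPD-L1 against R and NR averaged. Vegfa, the HIF-driven vessel growth factor, was at 333 and 517 scaled counts in PLX+PTX+aPD-L1 tumours, 592 and 104 in PLX+PTX, and 192 and 144 in PTX tumours. Its log2 fold change was 1.04 (SE 0.74) in PLX+PTX against PTX and 0.28 (SE 0.73) in PLX+PTX+aPD-L1 against PLX+PTX. In R it was 127, 297 and 168, and in NR 432, 111 and 194, with log2 fold changes of -0.32 between them, -0.83 in R and -0.50 in NR against PLX+PTX, and 0.95 in PLX+PTX+aPD-L1 against their mean. Myc, a transcription factor that drives many glycolysis genes, had log2 fold changes of -0.57 (SE 0.32, adjusted p = 0.424 by edgeR) in PLX+PTX+aPD-L1 and -0.40 in R against PLX+PTX. It had -0.16 in NR against PLX+PTX, -0.24 in R against NR, -0.07 in PLX+PTX against PTX and -0.29 in PLX+PTX+aPD-L1 against R and NR averaged. Over the 30 pairs of these 3 genes with the 10 members, the largest positive r was 0.61 (Slc2a1 with Hif1a) and the largest negative -0.66 (Tpi1 with Hif1a), and no adjusted permutation p was below 0.436.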

How the data were processed

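The 12 frozen tumours were crushed for RNA, which was purified on columns and made into cDNA, per the labels' protocols, and 50 ng went into multiplex target enrichment. The deposited raw counts are whole numbers for 784 probes (750 endogenous, 20 housekeeping, 6 positive and 8 negative controls). The deposited processed table holds log2 values, and DESeq2 and limma are named, without a role, in the submitters' processing notes. Set against the counts, these log2 values hold an adjustment that varies by gene (method not given in the sources used here), so the raw counts were tested and the log2 values were an alternative. For Aldoa and Ldha the deposited log2 ranges were 1.13 and 0.92, against 2.71 and 2.08 for scaled counts.

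Libraries were scaled on the geometric mean of 20 housekeeping probes. The detection limit was the mean of the negative controls plus 2 SD, 19.1 to 35.6 counts. Endogenous probes with 20 or more counts in at least 2 libraries were tested (615, with 135 left out). All 12 libraries entered 1 edgeR 4.0.16 quasi-likelihood fit of 5 group means in R 4.3.3, with Benjamini-Hochberg adjustment over the 615 and a threshold of 0.05. Standard errors were the fold change over the square root of F. Library scaling, the low-count filter, the test (DESeq2 1.42.0, limma-voom 3.58.1), the unit, background subtraction and single libraries were varied. The code was tested on simulated data. The 10 genes, the gene lists and the rule for other named genes (fixed lists, with Hif1a, Vegfa and Myc by name, and the 3 closest probes to each member) were chosen with earlier results of these data known. All 10 probe accessions matched a RefSeq transcript of the same symbol. No other sample's columns were used.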

Additional observations from a re-analysis of the deposited data

How the results depend on the processing

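No alternative brought any of the 10 genes past the threshold. The smallest adjusted p of a member under any of them was 0.057 (Ldha, PLX+PTX+aPD-L1 against PLX+PTX, without PLX+PTX+aPD-L1 replicate 2). The median log2 fold change of the 10 changed side or size as follows. With the deposited log2 values it was -0.10 in R against NR and 0.12 in NR against PLX+PTX, against 0.15 and -0.13 from the counts. In PLX+PTX+aPD-L1 against PLX+PTX it was 0.10 with total-count scaling, and leaving out each library in turn gave -0.39 to -0.0071, the highest without PLX+PTX+aPD-L1 replicate 1. In PLX+PTX+aPD-L1 against R and NR averaged, leaving out each library gave -0.35 to 0.10, again highest without that library. The cause of these shifts was not tested. The other 279 recomputed medians and counts moved by less than the replicate spread or stayed within 1.5 times, though some medians crossed 0. The PLX+PTX+aPD-L1 comparisons were not run without the low-signal libraries, since none of that group would be left. Scaling also moved the median of all genes. In NR against PLX+PTX it was -0.18 with housekeeping and 0.03 with TMM scaling, with the median of the 10 at 0.08, and in R against NR it was 0.11 and -0.03, with the 10 at 0.02. No paired analysis was possible because the labels give no replicate numbers: the numbers follow the order of deposition. The low housekeeping and total signal of 3 libraries limits the counts of Hk2 and Tpi1 most.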

Other observations

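The ratio of Aldoa to Eno1 counts, chosen after its values were seen, was 0.518 and 2.85 in PLX+PTX+aPD-L1 tumours, 3.04, 0.496 and 2.89 in R, 1.096, 1.62 and 1.001 in NR, 2.19 and 1.83 in PLX+PTX, and 1.72 and 1.62 in PTX tumours. It was below 1 in PLX+PTX+aPD-L1 replicate 1 and R replicate 2, both of low signal, while PLX+PTX+aPD-L1 replicate 2, also of low signal, was among the highest. In the deposited log2 values the same difference between Aldoa and Eno1 was 0.53 and 0.19 in those first 2 libraries and 0.55 in the third. For this difference the 3 libraries lie nearer each other in the deposited table than in the counts.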
